A study of Danio rerio with 8 samples.

Results

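The genes described here build the entry and folding machinery of the endoplasmic reticulum (ER), taken as a fixed list of 46 genes, in zebrafish larval eosinophils that lack the transcription factor Cebp1 or Cebpb. Of the 46, 45 were listed in each expression table and sil1 was not analysed here. A gene was kept when it averaged at least 1 TPM (transcript abundance corrected for gene length, with the same total in every library) over the 4 libraries of a table. Of the 46, 40 were kept for cebp1 and 39 for cebpb, each out of 30838 genes listed.

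Each library was made from about 500 eGFP-positive cells sorted from 7 dpf (days post fertilization) AB-strain larvae, and the study asked what each factor does in eosinophil development. The 4 groups were cebp1-/- (allele smu1) with its own cebp1+/+, and cebpb-/- (allele szy7) with its own cebpb+/+, at 2 libraries each. All groups carried Tg(eslec:eGFP), in which the promoter of eslec, an eosinophil lectin gene, drives eGFP, so the sort was aimed at cells in which this promoter is active. Each replicate came from a separate pool of larvae, 1 mutant allele stood for each gene, and with bulk RNA from sorted cells a change in cell mixture and a change in RNA per cell cannot be told apart.

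Secreted and membrane proteins reach the ER when the signal recognition particle (SRP) docks the ribosome at the Sec61 channel and the chain is threaded into the lumen. Signal peptidase then removes the leader, oligosaccharyltransferase (OST) attaches N-glycans, and chaperones, lectins and disulfide isomerases fold the chain. Eosinophils are granulocytes that store large amounts of secretory protein, all of which passes through this route. When unfolded protein accumulates, cells are known to raise chaperone genes, among other ER genes, through the unfolded protein response.

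All 7 eosinophil marker genes were detected in both tables. Their summed level was 24777 and 27602 TPM in cebp1-/- against 13883 and 16617 TPM in cebp1+/+. There 5 of the 7 were higher in cebp1-/- without overlap, 0 lower and 2 overlapped, beside 4.94% higher and 61.3% lower of all genes tested. In the cebpb table the 7 markers summed to 18103 and 24033 TPM in cebpb-/- against 45083 and 40943 TPM in cebpb+/+. Most of these sums came from eslec (listed as si:dkeyp-75b4.10), with 11658 and 17653 TPM in cebpb-/- against 36138 and 31898 TPM in cebpb+/+. Of the 7 markers, 3 were lower in cebpb-/- without overlap, 1 was higher and 3 overlapped. Over all genes tested, 14.7% were lower and 31.2% higher in this way. Itln1 and cxcr4b followed eslec, and cxcr4b had 1112 and 833 TPM in cebpb-/- against 2713 and 2581 TPM in cebpb+/+. Gata2a had 599.8 and 624 TPM in cebpb-/- against 539.6 and 651 TPM in cebpb+/+, with overlap. Il1rl1 went the other way, with 377 and 384 TPM in cebpb-/- against 45.3 and 60.7 TPM in cebpb+/+. The 10 keratinocyte markers summed to 17.9 and 23.6 TPM in cebp1-/- against 227 and 1645 TPM in cebp1+/+. In the cebpb table they gave 408 and 905 TPM in cebpb-/- against 15.1 and 346 TPM in cebpb+/+. The 10 liver markers, from a tissue rich in ER, summed to 90.9 and 113 TPM in cebp1-/- against 518 and 225 TPM in cebp1+/+. In the cebpb table they gave 241 and 6.42 TPM in cebpb-/- against 6.60 and 11.1 TPM in cebpb+/+. The exocrine pancreas, another tissue rich in ER, had markers summing to 37.4 and 36.5 TPM in cebp1-/- against 77.1 and 87.5 TPM in cebp1+/+. In the cebpb table they gave 52.0 and 0 TPM in cebpb-/- against 2.24 and 19.0 TPM in cebpb+/+. Connective tissue markers summed to 20.3 and 28.8 TPM in cebp1-/- against 82.6 and 123 TPM in cebp1+/+, and to 23.4 and 20.0 TPM in cebpb-/- against 1.51 and 3.23 TPM in cebpb+/+. Of the marker sums of 11 other cell types, 9 were lower in cebp1-/- than in cebp1+/+ without overlap and 0 higher, and 2 were lower (neutrophil and intestine) and 3 higher (keratinocyte, muscle and connective tissue) in cebpb-/- than in cebpb+/+. As single genes, 61.3% of all genes tested were lower without overlap in cebp1-/- and 4.94% higher, beside 14.7% and 31.2% in cebpb-/-. Single libraries stood apart in muscle markers, with 965 TPM in cebp1-/- replicate 1 and 32.2 TPM in replicate 2, and in erythrocyte markers, with 955 TPM in cebpb+/+ replicate 2 and 8.43 TPM in replicate 1. The part of these cells in the results was not tested.

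The translocon genes sec61a1 and ssr4 stood among the 3 highest ER genes in both tables, while hspa5 did so only in the cebpb table. By their mean over 4 libraries the 40 genes of the cebp1 table had a median of 42.0 TPM, from 8.02 to 868 TPM, and the 39 genes of the cebpb table a median of 189 TPM, from 11.6 to 3356 TPM. The 3 highest were ssr2, sec61a1 and ssr4 for cebp1 and hspa5, sec61a1 and ssr4 for cebpb. The order of the genes correlated between replicates at a Spearman rho of 0.970 for cebp1-/- and 0.865 for cebp1+/+ (40 genes), and at 0.970 for cebpb-/- and 0.959 for cebpb+/+ (39 genes). Between the 2 wild-type means it was 0.767 over the 39 shared genes. These coefficients run across genes of the same libraries and are given as a description.

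Hspa5 encodes BiP, the main Hsp70 chaperone of the ER lumen. It was the 2230th most abundant gene of cebp1+/+ cells by mean TPM and the 87th of cebpb+/+ cells. Within a library hspa5 stood at 0.0990 and 0.0731 of sec61a1 in cebp1+/+, and at 1.22 and 1.63 of it in cebpb+/+. The tables were normalized separately, so levels across them were not tested, and experiment and genetic line cannot be told apart.

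**Figure D1:**
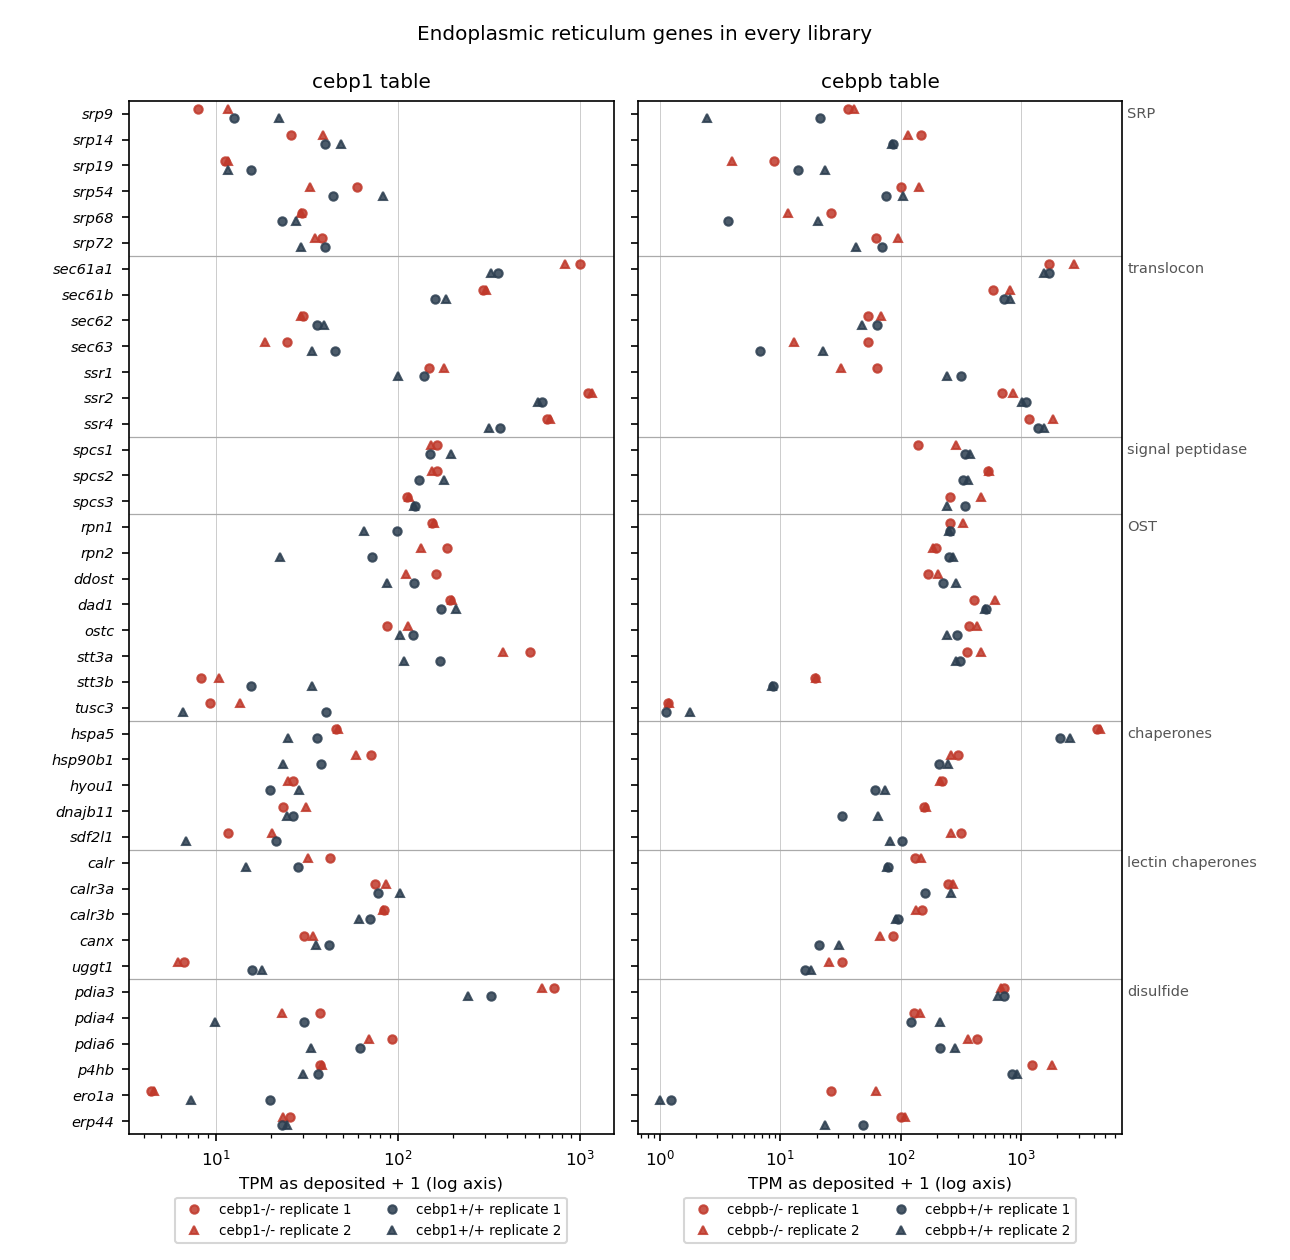
Each point is the TPM of 1 ER gene in 1 library, as deposited, plus 1 on a log axis, with the cebp1 table on the left and the cebpb table on the right. Red points are mutant and dark points wild type, circles replicate 1 and triangles replicate 2, and grey lines part the 7 steps. The red sec61a1 points lie at 1006 and 823 TPM in cebp1-/- against 352 and 324 TPM in cebp1+/+, and the red ssr1 points lie at 62.0 and 30.8 TPM in cebpb-/- against 315 and 242 TPM in cebpb+/+.

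Of the listed genes, 5 fell below the minimum in both tables. Sec61g, dnajc3a, manf, creld2 and ssr3 were listed at 0 in most libraries, and none exceeded 0.427 TPM. Sec61g and ssr3 encode subunits that work beside abundant partners in every cell, so their values are reported only as listed, with no statement on expression. Tusc3, an OST-associated oxidoreductase, was kept in the cebp1 table and did not exceed 0.765 TPM in the cebpb table.

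After scaling between libraries, loss of Cebp1 came with higher transcript levels of 4 of 7 translocon genes, 3 of 8 OST genes, pdia3 and hsp90b1. With scaling by the median of ratios, 9 of 40 genes were higher in cebp1-/- and 0 lower (limma on log2 of scaled TPM plus 1, adjusted p under 0.05 by Benjamini and Hochberg over 25203 genes). Over all genes tested 1.28% were called higher and 0.127% lower. Of the 20 ER genes at 50 scaled TPM or more 9 were called higher and 0 lower, beside 23.2% and 0.191% of the 1045 such genes. At an unadjusted p under 0.05 the ER genes counted 29 higher and 0 lower, beside 9.7% and 4.91% of all genes tested. The unadjusted shares were not computed among genes of at least 50 TPM. These calls depend on the scale. Leaving out 1 of the 4 libraries leaves 1 library in a genotype, so such a fit cannot decide a call. The median scaled effect of the ER genes was then 1.07 to 1.31. In TPM as deposited 0 of 40 ER genes passed in either direction, beside 0.0627% higher and 0.114% lower of all genes, with 9 higher and 4 lower at an unadjusted p under 0.05, where the background was 1.76% and 30.1%. Scaling shifted log2 ratios in this table by 1.07. After scaling 37 of 40 effects were positive, beside 89.8% of genes of at least 50 TPM and 46.9% of all genes tested. As deposited 25 of 40 were positive, beside 51.4% and 13.7%. The median effect of the ER genes was 1.14 scaled and 0.11 as deposited, beside 1.15 and 0.033 for genes of at least 50 TPM and -0.062 and -0.90 for all genes tested. When scaling used only genes of at least 50 TPM, 0 of 40 ER genes were called and their median effect was 0.028.

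At the translocon, sec61a1 encodes the channel itself. It had 1006 and 823 TPM in cebp1-/- against 352 and 324 TPM in cebp1+/+. Every mutant library lay above every wild-type library. Its scaled log2 fold change was 2.49 ± 0.27 (SE, n = 2 against 2, limma adjusted p = 0.0250), and as deposited it was 1.43 (95% interval 0.95 to 1.90, adjusted p = 0.0526). Sec61b, a small channel subunit, had 293 and 305 TPM in cebp1-/- against 158 and 183 TPM in cebp1+/+ (scaled 1.88 ± 0.30, limma adjusted p = 0.0390). Its groups did not overlap either.

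The translocon-associated protein (TRAP) complex, which helps certain signal peptides into the channel, is encoded by ssr1 to ssr4. Ssr2 had 1109 and 1159 TPM in cebp1-/- against 619 and 586 TPM in cebp1+/+ (scaled 1.98 ± 0.24, limma adjusted p = 0.0254). Ssr4 had 660.1 and 688 TPM in cebp1-/- against 365 and 317 TPM in cebp1+/+ (scaled 2.05 ± 0.25, limma adjusted p = 0.0254). Both were parted by genotype with a gap wider than the spread of replicates. Ssr1 had 148 and 178 TPM in cebp1-/- against 138 and 98.7 TPM in cebp1+/+ (scaled 1.54 ± 0.29, limma adjusted p = 0.0532), which did not pass. Sec62 and sec63, which serve post-translational entry, went the other way in TPM as deposited. Sec63 had 23.4 and 17.6 TPM in cebp1-/- against 44.1 and 32.8 TPM in cebp1+/+, and its log2 fold change was -0.87 as deposited and 0.16 scaled, so its sign turned with the scale and neither passed.

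Of the 2 catalytic subunits of OST, only stt3a was called. Stt3a, the catalytic subunit that acts at the channel, had 533 and 379.6 TPM in cebp1-/- against 169 and 107 TPM in cebp1+/+ (3.32-fold, scaled 2.80 ± 0.33, limma adjusted p = 0.0254). Stt3b, which glycosylates skipped sites, had 7.29 and 9.31 TPM in cebp1-/- against 14.6 and 32.5 TPM in cebp1+/+ (scaled -0.32 ± 0.52, limma adjusted p = 0.821). As deposited stt3b was lower without overlap, as were 61.3% of all genes tested, and after scaling its libraries overlapped. The ratio of stt3b to stt3a within a library was 0.0137 and 0.0245 in cebp1-/- against 0.0868 and 0.305 in cebp1+/+. It is free of the scaling, for a pair chosen after the values were seen. It is not free of expression level, which is lower for stt3b. As deposited the median effect was -0.90 over all genes tested and 0.033 for genes of at least 50 TPM. Rpn2, a structural subunit, had 185 and 132 TPM in cebp1-/- against 70.6 and 21.5 TPM in cebp1+/+ (scaled 3.02 ± 0.49, limma adjusted p = 0.0403). Rpn1, its partner ribophorin, had 152 and 156 TPM in cebp1-/- against 98.2 and 64.3 TPM in cebp1+/+ (scaled 2.01 ± 0.30, limma adjusted p = 0.0341). The remaining OST genes ddost, dad1, ostc and tusc3 had overlapping libraries as deposited and were not called.

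Of the folding genes, pdia3 and hsp90b1 passed. Pdia3, the disulfide isomerase that works with the lectin chaperones, had 716 and 617 TPM in cebp1-/- against 324 and 243 TPM in cebp1+/+ (scaled 2.31 ± 0.27, limma adjusted p = 0.0254). Hsp90b1, the Hsp90 of the ER lumen, had 70.5 and 57.8 TPM in cebp1-/- against 36.5 and 22.3 TPM in cebp1+/+ (scaled 2.18 ± 0.36, limma adjusted p = 0.0424). In both the libraries were parted by genotype as deposited. BiP itself was not called, with 44.4 and 45.9 TPM of hspa5 in cebp1-/- against 34.8 and 23.7 TPM in cebp1+/+ (scaled 1.67 ± 0.34, limma adjusted p = 0.0685). Hyou1, dnajb11 and sdf2l1, which assist BiP, had scaled effects of 1.11 to 1.33 and effects of 0.08 to 0.35 as deposited, and their libraries overlapped.

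Among the lectin chaperones, which hold glycoproteins during folding, none was called. Calr, a calreticulin gene, had 41.2 and 31.1 TPM in cebp1-/- against 27.2 and 13.5 TPM in cebp1+/+ (scaled 1.89 ± 0.42, limma adjusted p = 0.0828). Calr3b, another calreticulin gene, had 82.7 and 81.7 TPM in cebp1-/- against 69.0 and 59.9 TPM in cebp1+/+ (95% interval of the scaled effect 0.68 to 2.13, limma adjusted p = 0.0828). How reads shared by the similar calr, calr3a and calr3b were counted is not given in the sources used here. Uggt1, the sensor that sends misfolded glycoproteins back to the lectins, had 5.68 and 5.14 TPM in cebp1-/- against 14.7 and 17.0 TPM in cebp1+/+, with no overlap. Its log2 fold change was -1.39 as deposited (limma adjusted p = 0.0970) and -0.43 scaled (limma adjusted p = 0.696). Ero1a, the oxidase that recharges disulfide isomerases, had 3.39 and 3.57 TPM in cebp1-/- against 18.9 and 6.27 TPM in cebp1+/+, again with no overlap and no call. Among all genes tested, 61.3% were likewise lower in cebp1-/- without overlap as deposited.

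The SRP and signal peptidase genes, at the start of the route, were not called. Srp68 had the largest scaled effect of the SRP genes, with 28.7 and 28.3 TPM in cebp1-/- against 22.2 and 26.5 TPM in cebp1+/+ (scaled 1.25 ± 0.38, limma adjusted p = 0.182). Spcs2, a signal peptidase subunit, had 164 and 154 TPM in cebp1-/- against 129 and 178 TPM in cebp1+/+ (scaled 1.13 ± 0.35, limma adjusted p = 0.185). The median effect of the SRP genes was -0.34 as deposited and 0.67 scaled, so their direction turned with the scale.

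As deposited, 16 of 40 ER genes had both cebp1-/- libraries above both cebp1+/+ libraries, where 4.94% of all genes tested did, and 10 of 40 had them below, where 61.3% did. Among genes of at least 50 TPM the ER genes counted 11 higher and 1 lower of 19, beside 38.5% and 30.9% of all such genes. The share parted as higher was thus above that of all genes of at least 50 TPM, which were not matched for level, by a margin that was not tested.

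**Figure D2:**
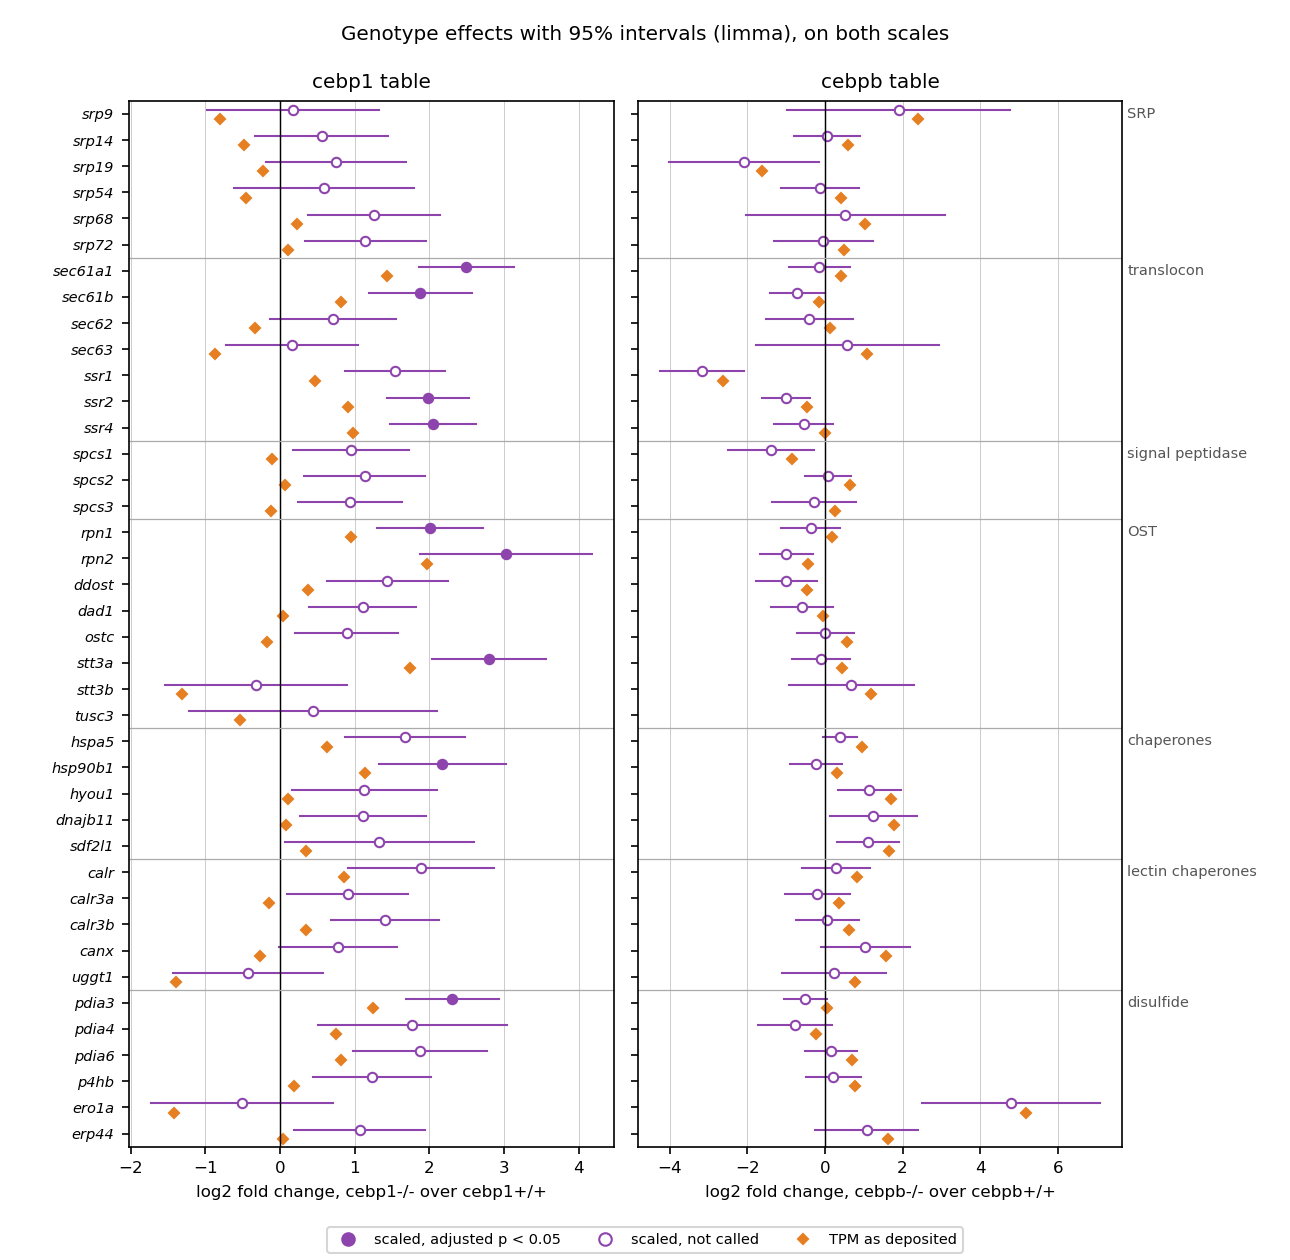
Horizontal axes show the log2 fold change of mutant over wild type for each ER gene, cebp1 on the left and cebpb on the right. Purple circles are the effects after scaling with 95% intervals from limma, filled when the adjusted p was under 0.05, and orange diamonds are the effects in TPM as deposited. The 9 filled circles are all in the cebp1 panel, from 1.88 for sec61b to 3.02 for rpn2, and the diamonds lie left of the circles there and right of them for cebpb.

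Loss of Cebpb gave another picture, in which BiP and its helpers were high in TPM and ssr1 was low, but no gene passed the test. With limma 0 of 39 ER genes were called in either direction, as were 0 of 11478 genes tested (0% called higher, 0% called lower), and 0 passed in TPM as deposited. The paper, which tested read counts with DESeq2, reported genes that were lower in cebpb-/-. Only TPM were tested here, so 0 calls are not evidence of no effect. At an unadjusted p under 0.05, 4 ER genes were higher and 7 lower after scaling, beside 6.13% and 8.05% of all genes, and 11 were higher and 1 lower as deposited, beside 10.6% and 4.4%. The median residual SD over genes, on the log2 scale, was 0.864 here and 0.450 for cebp1. Scaling shifted log2 ratios here by -0.55, and the median effect of the ER genes was -0.040 scaled and 0.50 as deposited, beside -0.027 and 0.46 for all genes. In TPM as deposited 20 of 39 had both mutant libraries above both wild-type libraries, where 31.2% of all genes did, and 6 of 39 had them below, where 14.7% did. Among genes of at least 50 TPM the ER genes counted 16 higher and 5 lower of 32, beside 42.8% and 21.6% of all such genes.

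Hspa5 had 4286 and 4532 TPM in cebpb-/- against 2079.7 and 2526 TPM in cebpb+/+, a 1.91-fold higher mean. The libraries did not overlap. Its log2 fold change was 0.94 as deposited (95% interval 0.58 to 1.30, limma adjusted p = 0.142) and 0.39 scaled (limma adjusted p = 0.387). Hyou1, which exchanges nucleotide on BiP, had 221 and 212 TPM in cebpb-/- against 59.9 and 73.1 TPM in cebpb+/+ (scaled 1.14 ± 0.32, limma adjusted p = 0.244). Dnajb11, a J-domain partner of BiP, had 155 and 160.5 TPM in cebpb-/- against 31.6 and 63.5 TPM in cebpb+/+ (scaled 1.25 ± 0.45, limma adjusted p = 0.316). Sdf2l1, which works with Dnajb11, had 315 and 261 TPM in cebpb-/- against 101 and 80.3 TPM in cebpb+/+ (scaled 1.11 ± 0.32, limma adjusted p = 0.249). These 3 helpers were 3.17 to 3.32 times as high by mean TPM, and hsp90b1 was 1.24 times as high, with 300.4 and 258 TPM in cebpb-/- against 205 and 245 TPM in cebpb+/+. All 5 chaperone genes kept were higher without overlap as deposited, beside 31.2% of all genes tested and 42.8% of genes of at least 50 TPM. Hsp90b1 had a scaled effect of -0.24, opposite in sign.

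Of the 5 lectin chaperone genes, 4 were higher in cebpb-/- without overlap as deposited and 0 lower. The 6 disulfide genes also counted 4 higher and 0 lower. Of all genes tested 31.2% were higher in this way, and 42.8% of genes of at least 50 TPM. After scaling the lectin chaperones counted 3 higher and 0 lower, and the disulfide genes 2 higher and 2 lower. Canx, the membrane lectin calnexin, had 85.6 and 65.9 TPM in cebpb-/- against 19.9 and 30.0 TPM in cebpb+/+ (scaled 1.04 ± 0.46, limma adjusted p = 0.384). P4hb, an abundant disulfide isomerase, had 1238 and 1799 TPM in cebpb-/- against 835 and 919.8 TPM in cebpb+/+ (scaled 0.22 ± 0.28, limma adjusted p = 0.724). Ero1a had 25.2 and 61.1 TPM in cebpb-/- against 0.251 and 0 TPM in cebpb+/+ (difference of 4.80 ± 0.92 in log2 of scaled TPM plus 1, limma adjusted p = 0.166), and since 1 wild-type library was listed at 0 no fold is given. Pdia3, called in cebp1-/-, had 716 and 682 TPM in cebpb-/- against 721 and 635 TPM in cebpb+/+, with overlapping libraries.

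Of the entry genes, ssr1 stood lowest relative to wild type. It had 62.0 and 30.8 TPM in cebpb-/- against 315 and 242 TPM in cebpb+/+, 0.166 of the wild-type mean. Both mutant libraries lay far below both wild-type libraries, and the log2 fold change was -3.17 ± 0.43 scaled (limma adjusted p = 0.150) and -2.63 as deposited (95% interval -3.77 to -1.50, limma adjusted p = 0.155). Its TRAP partner ssr2 had 695 and 847 TPM in cebpb-/- against 1093 and 1012 TPM in cebpb+/+ (scaled -1.01 ± 0.24, limma adjusted p = 0.206), also without overlap. Ssr4, the remaining TRAP gene kept, had 1162 and 1840.5 TPM in cebpb-/- against 1372 and 1546 TPM in cebpb+/+, with overlap. The ratio of ssr1 to ssr2 within a library was 0.0892 and 0.0363 in cebpb-/- against 0.289 and 0.239 in cebpb+/+, and 0.133 and 0.154 in cebp1-/- against 0.222 and 0.168 in cebp1+/+. That ratio is free of the scaling and was picked after the values were seen.

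The channel gene sec61a1 had 1699 and 2723 TPM in cebpb-/- against 1698 and 1548 TPM in cebpb+/+ (scaled -0.14 ± 0.31, limma adjusted p = 0.851). One mutant library sat at the level of wild type and the other above it. Rpn2 had 197 and 186 TPM in cebpb-/- against 248 and 273 TPM in cebpb+/+ (scaled -0.99 ± 0.27, limma adjusted p = 0.231). Ddost, a non-catalytic OST subunit, had 167 and 202 TPM in cebpb-/- against 221 and 286 TPM in cebpb+/+ (95% interval of the scaled effect -1.78 to -0.22, limma adjusted p = 0.273). Spcs1, an accessory subunit of signal peptidase, had 138 and 286 TPM in cebpb-/- against 339 and 376 TPM in cebpb+/+ (scaled -1.39 ± 0.45, limma adjusted p = 0.283). Srp19, which helps assemble SRP, had 7.85 and 2.95 TPM in cebpb-/- against 13.0 and 22.6 TPM in cebpb+/+ (scaled -2.10 ± 0.77, limma adjusted p = 0.323). None of these passed, although in the last 4 the mutant libraries lay below the wild-type ones. As deposited, 6 of 39 ER genes (15.4%) were lower in this way, beside 14.7% of all genes tested. Among genes of at least 50 TPM the ER genes counted 5 of 32, beside 21.6% of all such genes.

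The make-up of the machinery within a library does not depend on the scaling between libraries. The translocon took 50.2% and 52.8% of the summed TPM of the ER genes in cebp1-/- against 43.4% and 44.0% in cebp1+/+. Signal peptidase took 6.71% and 6.91% in cebp1-/- against 10.2% and 13.8% in cebp1+/+, and SRP took 2.55% and 2.52% in cebp1-/- against 4.28% and 6.01% in cebp1+/+. The cebp1-/- libraries were therefore richer in channel and TRAP transcripts relative to targeting and cleavage. In the cebpb table the translocon took 27.0% and 32.5% in cebpb-/- against 40.0% and 37.7% in cebpb+/+. Chaperones took 33.1% and 27.9% in cebpb-/- against 18.8% and 21.6% in cebpb+/+, and without hspa5 they took 8.52% and 5.97% in cebpb-/- against 3.59% and 4.08% in cebpb+/+. Of the 14 step and table pairs, 11 had no overlap between genotypes, the exceptions being chaperones and OST in the cebp1 libraries and lectin chaperones in the cebpb libraries. The shares of a library add up to the whole, so a rise in any step lowers others and the 14 are not independent. As single genes in deposited TPM, 4.94% of all genes were higher and 61.3% lower without overlap in cebp1-/-, beside 31.2% and 14.7% in cebpb-/-. With 2 libraries a group the smallest p of an exact two-sided permutation test is 0.333, so no test was run. Together the ER genes made up 0.651% and 0.606% of all TPM in cebp1-/- against 0.394% and 0.359% in cebp1+/+, and 1.59% and 1.95% in cebpb-/- against 1.32% and 1.39% in cebpb+/+.

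**Figure D3:**
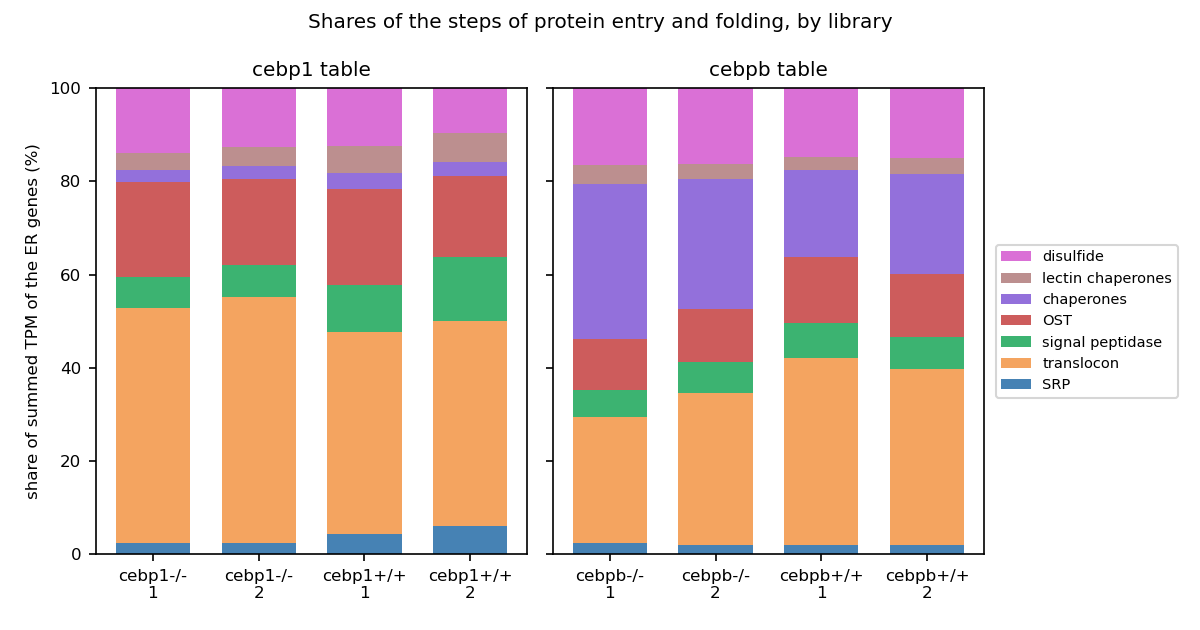
Each bar is 1 library and stacks the share of the summed TPM of the ER genes, in percent, that each of 7 steps took, with mutant bars left of wild-type bars in each panel. The orange translocon block is 50.2% and 52.8% in cebp1-/- against 43.4% and 44.0% in cebp1+/+, and the purple chaperone block is 33.1% and 27.9% in cebpb-/- against 18.8% and 21.6% in cebpb+/+.

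Whether the mutations differ in effect was tested in 1 fit of all 8 libraries, as the cebp1 effect minus the cebpb effect for 39 genes. The fit uses 1 spread for both tables although their spreads differed. After scaling, 12 ER genes had a positive difference and 1 a negative one at an adjusted p under 0.05 over 11360 genes, beside 6.09% and 0.739% of all genes. That share was not computed among genes of at least 50 TPM. Scaling shifted the effects in opposite directions, by 1.07 for cebp1 and -0.55 for cebpb. The median difference of the ER genes was 1.22 scaled and -0.39 as deposited. As deposited 2 had a positive and 1 a negative difference, beside 0.919% and 3.53%, and these were ssr1, ssr2 and ero1a, each of which was also called on the scaled values. Of the scaled calls, only 5 positive ones were made without cebp1-/- replicate 1, and 5 without cebpb+/+ replicate 1.

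Ssr1 had a difference of 4.71 on the scaled log2 values (limma adjusted p = 0.00223) and of 3.11 as deposited (limma adjusted p = 0.0246). Its difference passed in all 16 alternatives run, with the largest adjusted p at 0.0472. Ssr2 had a difference of 2.99 scaled (limma adjusted p = 0.00223) and of 1.37 as deposited (limma adjusted p = 0.0234), and passed in 15 of 16, the exception being the fit with no mean-variance trend (0.0727). Both genes were higher in cebp1-/- than in cebp1+/+ and lower in cebpb-/- than in cebpb+/+ in every library pair. Ero1a went the opposite way, with a difference of -5.31 scaled (limma adjusted p = 0.0227) and -6.60 as deposited (limma adjusted p = 0.0237), and passed in 6 of the 15 alternatives that tested it (it fell below a minimum of 10), being lost without any 1 of the cebp1-/-, cebp1+/+ or cebpb+/+ libraries (adjusted p 0.0560 to 0.125). The TRAP and channel genes sec61a1, sec61b and ssr4 differed by 2.59 to 2.64 on scaled values and did not pass as deposited, at adjusted p of 0.103 to 0.112.

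**Figure D4:**
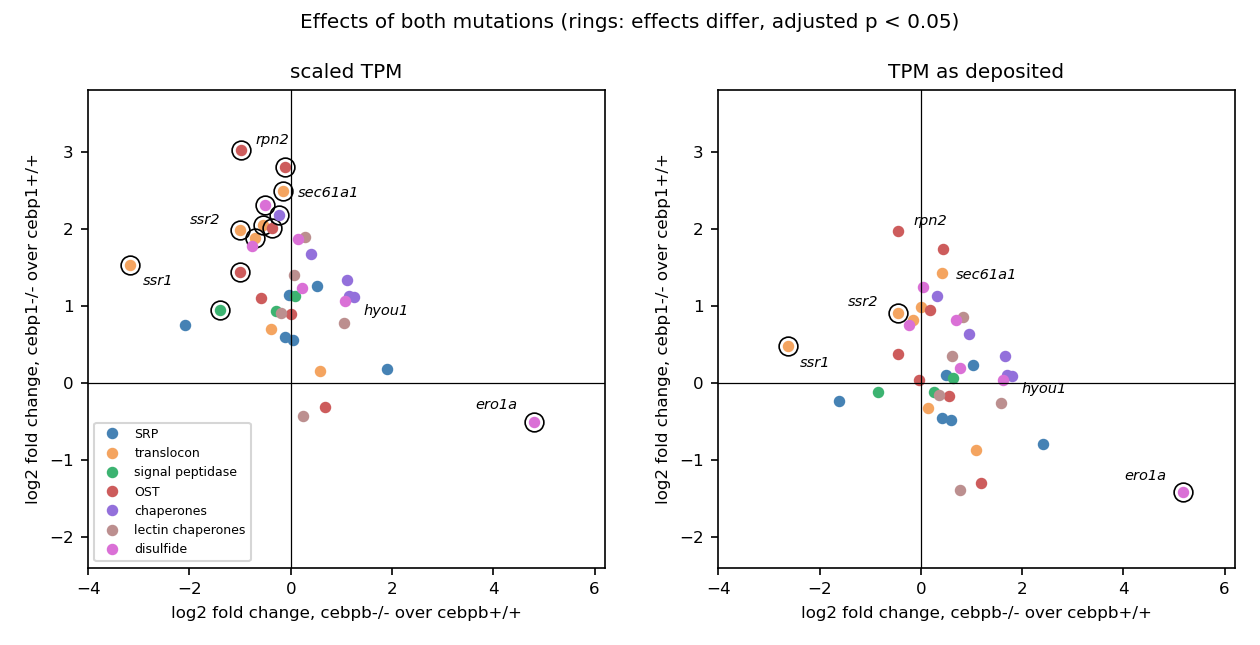
Each point is 1 of 39 ER genes, with the log2 fold change of cebpb-/- over cebpb+/+ on the horizontal axis and that of cebp1-/- over cebp1+/+ on the vertical axis, scaled on the left and as deposited on the right, coloured by step. Rings mark genes whose effects differed at an adjusted p under 0.05, which are 13 after scaling and 3 as deposited, ssr1 at the left and ero1a at the right edge among them.

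Other ER genes were read from 2 further lists. Of 78 tested genes of entry, glycosylation and folding outside the list, 3 were called higher in cebp1-/- after scaling and 0 lower, and of 29 genes of ER-associated degradation 1 was higher and 0 lower. Of all genes tested 1.28% were called higher and 0.127% lower, and of genes at 50 scaled TPM or more 23.2% and 0.191%. Ppib, a prolyl isomerase of the lumen, had 422 and 442 TPM in cebp1-/- against 227 and 227 TPM in cebp1+/+ (scaled 1.99, limma adjusted p = 0.0261). Magt1, an OST oxidoreductase, had 229 and 183 TPM in cebp1-/- against 132 and 99.3 TPM in cebp1+/+ (scaled 1.89, limma adjusted p = 0.0402). Ube2g2, a ubiquitin-conjugating enzyme of ER-associated degradation, had 94.0 and 74.2 TPM in cebp1-/- against 24.7 and 31.6 TPM in cebp1+/+ (scaled 2.59, limma adjusted p = 0.0328). Dhdds, a subunit of the enzyme that makes dolichol for the glycan carrier, had 59.3 and 72.4 TPM in cebp1-/- against 45.8 and 31.7 TPM in cebp1+/+ (scaled 1.81, limma adjusted p = 0.0488). In all 4 the genotypes were parted, and none passed as deposited. Without overlap as deposited, 13 of the 78 were higher and 24 lower in cebp1-/-, and 3 of the 29 were higher and 8 lower, to be read beside the 4.94% and 61.3% of all genes. The median effects of these lists were -0.22 and -0.20 as deposited and 0.74 and 0.80 scaled, so they turned in sign with the scale.

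Of the same lists, 0 of 68 and 0 of 26 genes were called in cebpb-/-. Derl1, a channel protein of degradation, had 347 and 643 TPM in cebpb-/- against 97.2 and 119 TPM in cebpb+/+ (limma adjusted p = 0.227). Herpud1, which organizes the degradation complex, had 424 and 345 TPM in cebpb-/- against 543 and 497 TPM in cebpb+/+ (limma adjusted p = 0.205). Both genes were without overlap as deposited, as were 24 of the 68 genes on the higher side and 6 on the lower, and 13 of the 26 on the higher side and 3 on the lower, beside 31.2% and 14.7% of all genes. The median effects were 0.42 and 0.55 as deposited and 0.0025 and -0.070 scaled.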

How the data were processed

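Bulk RNA was measured in 8 libraries of about 500 sorted cells. The authors aligned reads to GRCz11 with STAR, counted them with featureCounts, tested them with DESeq2 and deposited TPM, 1 table per mutation. Annotation and gene lengths are not given in the sources used here. TPM carry no depth, so counting error cannot be computed. All 8 columns were used.

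Within a table, libraries were scaled by median-of-ratios factors from genes that no library listed at 0 and whose mean reached 1 TPM. Where the scaled mean reached 1 TPM, limma 3.58.1 under R 4.3.3 tested log2(scaled TPM + 1) with a mean-variance trend, two-sided, Benjamini-Hochberg adjusted over all genes and called under 0.05. Fold changes on this scale understate low genes. The 4-group fit tested the difference of effects. Figures used matplotlib 3.10.9 (Python 3.11.15). Alternatives were no scaling, scaling on genes of at least 50 TPM, pseudocounts of 0.1 and 5, other filters, no trend, a replicate block and leaving out each library.

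Members and lists were chosen with earlier results of these data known. Every listed gene may be named. Library values are given for called genes, the 3 highest per table and, per step, the smallest p and the largest effect, and for others of interest that were picked after their values were seen. The marker lists of other cell types were read as sums.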

Additional observations from a re-analysis of the deposited data

Results flagged for a closer look

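For 13 ER genes the effect of losing Cebp1 differed from the effect of losing Cebpb (cebp1 effect minus cebpb effect, scaled log2, limma adjusted p under 0.05). Of these 12 were positive and 1 negative, beside 6.09% and 0.739% of all genes tested. The differences were 4.71 for ssr1, 2.99 for ssr2, 2.60 for ssr4, 2.64 for sec61a1 and 2.59 for sec61b at the translocon. They were 4.01 for rpn2, 2.91 for stt3a, 2.44 for ddost and 2.37 for rpn1 in OST, 2.34 for spcs1 in signal peptidase, 2.81 for pdia3, 2.41 for hsp90b1 and -5.31 for ero1a. Without scaling only ssr1, ssr2 and ero1a kept an adjusted p under 0.05. The difference was taken between tables that were normalized separately, so mutation and experiment cannot be told apart.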

How the results depend on the processing

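After scaling 9 ER genes were called higher in cebp1-/-. The count became 0 in TPM as deposited and 0 with scaling on genes of at least 50 TPM. It became 0 with no filter on low values and 0 with no mean-variance trend, against 20 with a minimum mean of 10 scaled TPM. With 1 library left out a genotype keeps 1 library, so calls were not compared there. The median log2 effect of all 40 cebp1 ER genes was 0.11 as deposited and 0.028 with scaling on genes of at least 50 TPM. The median effect of the cebpb ER genes was 0.50 as deposited. For the difference of effects, the 12 positive calls became 2 as deposited, 3 with scaling on genes of at least 50 TPM, 1 with no trend and 5 to 15 when 1 library was left out, lowest at 5 without cebp1-/- replicate 1 or cebpb+/+ replicate 1. Its 1 negative call, ero1a, became 0 with no filter, no trend or the replicate block, 0 at a minimum of 10, where ero1a was not among the genes tested, and 0 to 1 when 1 library was left out. The median difference of the ER genes, 1.22 after scaling, was -0.39 as deposited and -0.16 with scaling on genes of at least 50 TPM. Over all genes 323 were called higher in cebp1-/- and 32 lower. The higher count became 16 as deposited, 11 with scaling on genes of at least 50 TPM and 194 with a pseudocount of 0.1. It was 1 with no filter, 1126 with a minimum of 10 and 0 with no trend. The lower count became 29, 29, 18, 45, 57 and 0 in that order.

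Step shares were recomputed without the highest gene of each table. In the cebp1 table the lectin share difference (mutant minus wild type) was then -2.65 percentage points, against -2.32 with all ER genes. For the cebpb table the difference with all ER genes is given in brackets. It was 3.41 (10.3) for chaperones, 4.05 (1.58) for disulfide genes and 1.18 (0.58) for lectins. For OST it was -1.48 (-2.45), for signal peptidase -0.58 (-1.15), for SRP 0.56 (0.22) and for the translocon -7.15 (-9.10).

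Same-numbered libraries did not deviate together (correlations of 0.0081 for cebp1 and -0.019 for cebpb), so the numbers were not taken as pairs. With the replicate block 10 cebp1 ER genes were called higher, 338 genes in all were higher and 49 lower, 1 cebpb ER gene (ssr1, adjusted p = 0.0374) was lower, and 11 differences were positive.

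With 2 libraries a group and unknown depth, small changes and the levels of genes listed at 0 cannot be read, and the causes of these shifts were not tested.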
